A study of Mus musculus with 12 samples.

Results

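The genes described here are 38 genes of protein folding in the endoplasmic reticulum (ER) and of the unfolded protein response. They were taken by symbol from a table of raw read counts per gene. All 38 were found among its 53762 symbols, and all 38 were among the 16945 genes that passed the filter on low counts and were tested. By role they are 10 chaperones of the HSP70 and HSP90 type with their co-factors, 2 lectin chaperones, 6 protein disulfide isomerases, 7 components of the translocon, signal peptidase and glycosylation machinery, 7 factors of ER-associated degradation, and 6 stress sensors, transcription factors and regulators.

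T cells from mouse spleen were kept in co-culture with partner cells named Res in the labels and their RNA was sequenced, and the comparison asks how T cell expression differs with the partner. The 4 groups, of 3 libraries each, were T cells with Res cells carrying shFabp7 (a short hairpin RNA against Fabp7, the gene of a fatty acid binding protein) at 48 h, T cells with Res cells carrying a control construct at 48 h, and the same 2 partners at 24 h. The hairpin was in the partner cells. The labels name no change made to the T cells, and all groups shared the co-culture in complete RPMI-1640 medium. The labels do not give the strain or age of the mice, how the T cells were purified or whether they were stimulated, nor whether the knockdown partner was 1 clone. They also do not state that the 3 libraries of a group stem from separate cultures or animals. A p-value here therefore reflects only how far these libraries spread, which may be technical.

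Secretory and membrane proteins enter the ER through the Sec61 channel, lose their signal peptide, receive N-linked sugars and fold with the help of chaperones, lectins and disulfide isomerases, while proteins that fail to fold are pulled back to the cytosol and degraded. When unfolded proteins accumulate, the sensors IRE1 (gene Ern1), PERK (Eif2ak3) and ATF6 (Atf6) raise the transcription of this machinery, IRE1 through splicing of the Xbp1 mRNA, and PERK also slows translation and induces Ddit3. In T cells the system carries the load of receptor, adhesion molecule and cytokine synthesis that follows activation. Counts per gene do not show Xbp1 splicing, sensor phosphorylation or ATF6 cleavage.

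The element best known from promoters of such genes is the ER stress response element (ERSE), which reads CCAAT, then any 9 bases, then CCACG, and which ATF6 and XBP1 act on together with the CCAAT factor NF-Y. A RefSeq promoter (GRCm38.p6, 250 bases before to 50 after the start) was listed for 29 of the 38 members (all but Atf6, Ostc, Hyou1, Sec61a1, Manf, Hspa13, Ssr2, Sec11c and Derl1), and on either strand 9 of the 29 (31.0%) held an ERSE, against 37 of 27025 genes (0.137%). Since ERSE was defined on genes of this kind, this describes the members and says nothing about the factors in these cells. The stretches that hold the element are shown in order of the partner effect at 48 h because, of the 4 motifs searched, this is the one the members hold most often. They run 5′ to 3′ along the strand of the gene, all lie before the start, and the capitals mark both conserved ends of the element, CCAAT and CCACG or their reverse complements.
Calr (chr8:84847065-84847103, minus strand): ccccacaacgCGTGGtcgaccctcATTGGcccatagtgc
Creld2 (chr15:88819510-88819548, plus strand): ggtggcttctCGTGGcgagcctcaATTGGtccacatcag
Hsp90b1 (chr10:86705523-86705666, minus strand, 2 copies): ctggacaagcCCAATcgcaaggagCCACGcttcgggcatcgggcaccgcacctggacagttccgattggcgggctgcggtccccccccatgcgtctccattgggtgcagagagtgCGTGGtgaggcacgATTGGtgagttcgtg
Hspa5 (chr2:34772015-34772053, plus strand): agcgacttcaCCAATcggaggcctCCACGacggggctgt
Pdia6 (chr12:17266481-17266519, plus strand): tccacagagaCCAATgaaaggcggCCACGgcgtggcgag
Syvn1 (chr19:6046522-6046560, plus strand): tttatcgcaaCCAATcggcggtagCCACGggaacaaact
Canx (chr11:50325790-50325828, minus strand): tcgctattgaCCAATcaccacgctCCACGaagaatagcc
Dnajc3 (chr14:118937817-118937855, plus strand): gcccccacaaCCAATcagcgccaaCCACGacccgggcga
Derl3 (chr10:75893232-75893270, plus strand): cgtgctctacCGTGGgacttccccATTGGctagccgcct

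The 9 holders had a median log2 fold change of 0.43 at 48 h (shFabp7 over control partner, range -0.09 to 0.63), and the 20 members with a listed promoter without the element had 0.23 (range -0.46 to 0.64), so the ranges overlapped. Sdf2l1, with the highest value of all members, held none in this window, and Derl3 and Dnajc3 held one with small effects. A related element, ERSE-II (ATTGG, any 1 base, CCACG), was found in 2 of the 29 (Dnajb11 and Herpud1, 6.90%), against 0.0444% of all genes. The Dnajb11 copy lies after the start, so its stretch is not shown. The Herpud1 copy lies at chr8:94386367-94386397 (plus strand) and overlaps no other motif searched.
Herpud1: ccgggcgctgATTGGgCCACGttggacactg

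The other motifs matched few members. The XBP1 element TGACGTGG was found in 1 of the 29 (Txndc5, 3.45%, against 0.714% of all genes). The CHOP and ATF4 type element TGATGNAA was found in 2 (Txndc5 and Herpud1, 6.90%, against 4.51% of all genes). Letters of a motif in a window are a description, not a binding site.

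The libraries held 32.0 to 40.6 M counts. All 15 T cell markers examined were tested and none was at 0 in any group. Over time 11 of the 15 fell and 3 rose with the shFabp7 partner (73.3% and 20%, against 30.2% and 35.9% of all genes tested). With the control partner 11 fell and 2 rose (73.3% and 13.3%, against 32% and 35.8%). At 48 h 2 of the 15 were called higher and 5 lower with the shFabp7 partner (13.3% and 33.3%, against 19.9% and 11.6%). Their summed level was 3919 to 4033 CPM (counts scaled by library size and TMM factor) with the shFabp7 partner and 3885 to 3941 CPM with the control partner at 48 h, and 4988 to 5188 and 5045 to 5208 CPM with the same partners at 24 h. The level of Fabp7, targeted in the partner cells and not in the T cells, was 0 counts in 9 libraries and 3, 1 and 1 counts in those of the control partner at 48 h, so it does not check the knockdown. Plasma cells are rich in this machinery. Of 12 of their markers 11 were tested, and the sum of all 12 was 1204 to 1394 CPM with the shFabp7 and 959.8 to 1107 CPM with the control partner at 48 h, and 2374 to 2626 and 2415 to 2627 CPM at 24 h. At 48 h 3 of them rose with the shFabp7 partner (Irf4 by 0.42 ± 0.06, Prdm1 by 0.23 ± 0.09 and the immunoglobulin gene Ighg2b by 0.70 ± 0.19) and none fell. That is 27.3% and 0%, against 19.9% and 11.6% of all genes. Of the 11, 9 had a positive and 2 a negative log2 fold change at 48 h (median 0.23, range -0.37 to 0.70). The median of the difference between the times was 0.20 with 2 called higher (18.2%, against 4.43% of all genes). Over time 8 of the 11 fell and 1 rose with each partner (72.7% and 9.09%). Of all genes 30.2% fell and 35.9% rose with the shFabp7 partner, and 32% and 35.8% with the control partner. The medians of the 11 over time were -1.30 with the shFabp7 and -1.43 with the control partner. Irf4, a factor that activated T cells also express, had 730.1, 707 and 740.2 CPM with the shFabp7 and 594, 529 and 502 CPM with the control partner at 48 h. Other markers of the list, among them Ighm, at 301 ± 53.7 and 302 ± 42.6 CPM (SD, n = 3 each), Igkc (0.26 ± 0.16, adjusted p = 0.28), Igha (0.37 ± 0.14, adjusted p = 0.067), Jchain (0.21 ± 0.20, adjusted p = 0.49) and Sdc1 (0.25 ± 0.11, adjusted p = 0.069), did not pass edgeR's quasi-likelihood test, and Tnfrsf17 was at 0 with the control partner. The sum of 10 B cell markers was 21.6 to 23.1 and 21.5 to 25.5 CPM at 48 h. Of 10 neutrophil markers 6 were tested and 3 fell at 48 h (50%, against 11.6% of all genes). The sums of the 10 were 3.33 to 4.85 and 5.38 to 10.0 CPM. Retnlg was at 0 in every group. Of 7 NK cell markers 6 were tested and 1 fell at 48 h (16.7%, against 11.6% of all genes). The 7 summed to 151.7 to 154.8 and 158.6 to 172.0 CPM. Of 7 epithelial or tumour markers 4 were tested, and 1 fell and none rose at 48 h (25% and 0%, against 11.6% and 19.9%). Their sums were 4.53 to 6.03 CPM with the shFabp7 and 6.82 to 7.66 CPM with the control partner at 48 h. At 24 h these sums were 10.0 to 10.6 and 11.3 to 12.4 CPM, with none called. The part of these cells in the results below was not tested.

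At 48 h the ER folding genes were higher in T cells with the shFabp7 partner. Of the 38 members 27 rose and 2 fell (Ddit3 and Sec11c), where 19.9% of all genes tested rose and 11.6% fell (31.6% in either direction). The median log2 fold change of the members was 0.28, against 0.01 over all genes. With upper-quartile scaling 22 rose and 3 fell, and with library totals 23 and 3. The share of higher genes among all called genes was 63.2%, against 39.9% and 40.5% with those scalings. At 24 h 3 members rose and 1 fell (background 6.22% and 4.65%, 10.9% in all), with a median of 0.04, against -0.00. The members called higher at 24 h came to 0 without shFabp7 24 h replicate 1 or control 24 h replicate 1, and to 9 without control 24 h replicate 2. The shares of all genes called moved too: 3.59% were higher and 1.86% lower without control 24 h replicate 1, and 9.68% were higher without control 24 h replicate 2. At 24 h 57.2% of all called genes were higher, against 71.9% with RLE scaling, 42.1% with upper-quartile scaling and 33.2% with library totals. In this bulk RNA, fewer cells of a type and less RNA per cell cannot be told apart. The 3 libraries of each partner did not overlap in CPM at 48 h for 27 members that were higher and 2 that were lower (background 25.7% and 18.4%), and at 24 h for 9 and 4 (background 15% and 12.5%).

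The partner effect itself changed between the times. By the interaction contrast, 16 members had a larger effect at 48 h than at 24 h and none a smaller one (background 4.43% and 1.17%, 5.6% in either direction), with a median of 0.22, against 0.04 over all genes. Of all called genes 79.0% had a larger value, against 48.9% with upper-quartile scaling and 61.9% with library totals. Without any 1 of the 24 h libraries it was 50.5% to 60.1%. The share of all genes called higher was 7.69% without control 48 h replicate 1 and 1.05% to 2.82% without any 1 of the other libraries, lowest without shFabp7 24 h replicate 2, while 12 to 18 members were called higher. The share called lower was 2.01% without control 48 h replicate 1 and 0.536% without control 48 h replicate 3. In the lower direction 1 member had an unadjusted p below 0.05, Ddit3 at -0.34 ± 0.11 (edgeR adjusted p = 0.061), and DESeq2 called that 1. None of the 16 passed against a minimum fold of 1.2 (edgeR's glmTreat), which 12 of the 27 higher and 1 of the 2 lower members at 48 h did. Of all genes tested, 0.0708% were higher and 0.0059% lower against that fold by the interaction contrast. For the partner at 48 h 4.09% were higher and 1.84% lower, and at 24 h 0.0295% and 0.0531%. The partner and time comparisons rest on the same 12 libraries, so their values stand side by side below and do not support one another.

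Over time more members fell than rose with both partners, except with library totals as the scaling, where more rose with the shFabp7 partner. At 48 h against 24 h, 10 members rose and 18 fell with the shFabp7 partner (background 35.9% and 30.2%, 66.1% in all, median -0.11), and 6 rose and 25 fell with the control partner (background 35.8% and 32%, 67.7% in all, median -0.31). The libraries of the times did not overlap for 13 higher and 20 lower members with the shFabp7 partner (background 38.5% and 32.9%), and for 6 and 25 with the control partner (background 36.7% and 32%). Medians over all genes were 0.06 and 0.04. These time values depend on the scaling. With library totals in place of TMM factors the medians over all genes moved to 0.21 and 0.23, and the members' medians to 0.04 and -0.12, with 17 up and 11 down for the shFabp7 partner and 9 up and 22 down for the control partner, so the sign for the shFabp7 partner turned. The share of higher genes among all calls was 54.3% and 52.8%, and 66.4% and 67.2% with library totals. Of all genes tested, 44.2% rose and 22.4% fell with library totals for the shFabp7 partner, and 45.7% and 22.3% for the control partner.

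**Figure D1:**
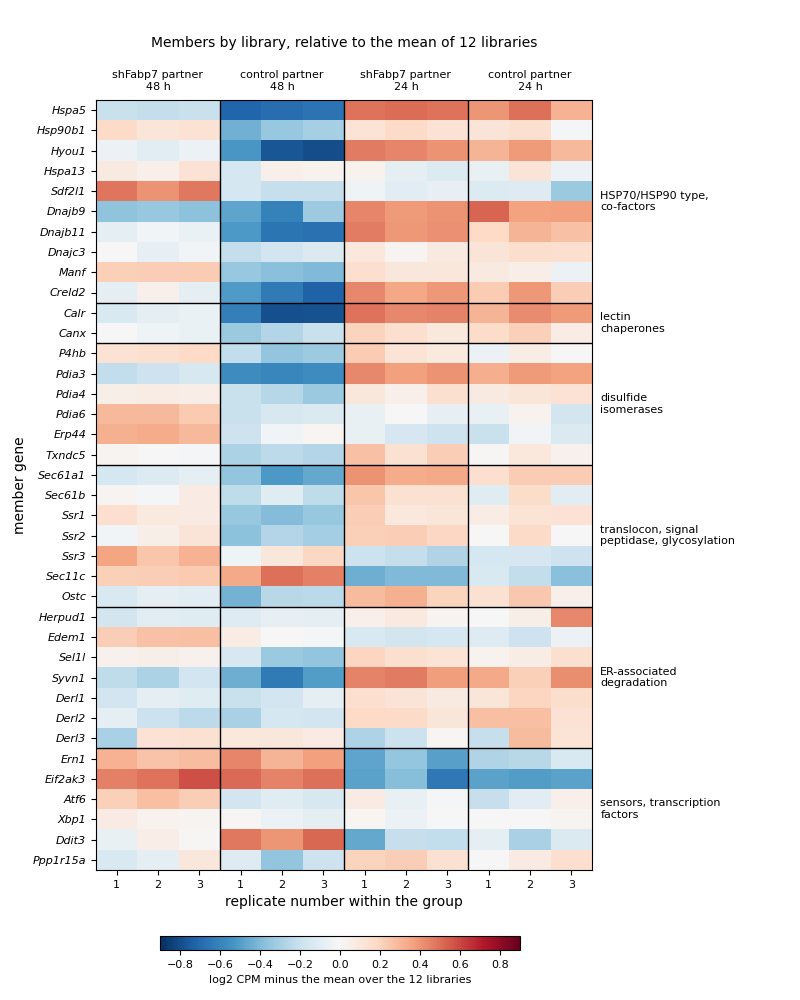
Level of each of the 38 members (rows, grouped by role) in each of the 12 libraries (columns, grouped by partner and time), as log2 CPM minus the gene's mean over the 12 libraries, with red above and blue below that mean. Libraries with the control partner at 48 h were the lowest for most chaperones and disulfide isomerases, while Ern1, Eif2ak3 and Sec11c were higher at 48 h than at 24 h with both partners.

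The share of all counts that fell on the 38 members was taken without TMM factors, so it scales by library totals. It was 0.719%, 0.709% and 0.721% with the shFabp7 partner and 0.585%, 0.583% and 0.592% with the control partner at 48 h. At 24 h it was 0.762%, 0.751% and 0.741% with the shFabp7 partner and 0.731%, 0.763% and 0.734% with the control partner. The groups were apart at 48 h and overlapped at 24 h, and no test was run on this sum because the members were chosen with results known. Of the 10 HSP70 and HSP90 type genes alone, the share averaged 0.218% ± 0.00352 and 0.164% ± 0.00185 at 48 h, and 0.250% ± 0.00234 and 0.244% ± 0.0107 at 24 h (shFabp7 and control partner, SD, n = 3).

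**Figure D2:**
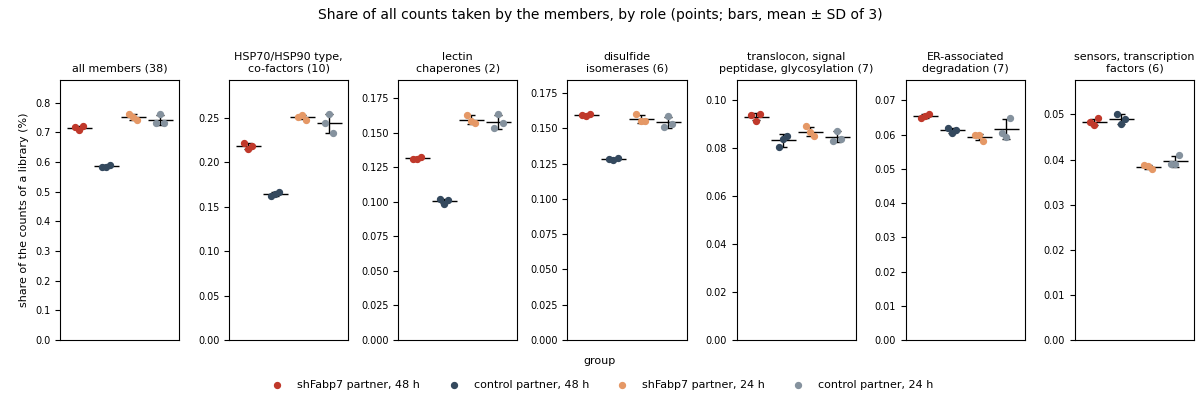
Share of the counts of each library (in %) that fell on all 38 members and on each role, by group, with points for libraries and bars for mean ± SD of 3. For all members the 3 control partner libraries at 48 h lie between 0.583% and 0.592%, below the 9 others, while the sensors and transcription factors hold larger shares at 48 h than at 24 h with both partners.

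Per length the module is dominated by a few luminal proteins. In the control partner group at 24 h, Calr stood at 510.5 ± 22.4 CPM per kb of exon (SD, n = 3; lengths from GENCODE M21), Hspa5 at 271 ± 17.4, Pdia3 at 222 ± 4.51 and Hsp90b1 at 209 ± 12.1. Pdia3 and Hsp90b1 are neighbours in this order within about their spread. Derl3 was the lowest at 1.57 ± 0.27, below Ern1 at 3.45 ± 0.173 and Atf6 at 4.51 ± 0.397. At 48 h Calr was at 368 ± 9.63 with the shFabp7 and 238 ± 16.6 with the control partner and was still the highest. Hsp90b1 then stood above Hspa5 with both partners, at 217 ± 4.54 against 177 ± 1.01 with shFabp7 and 154 ± 7.13 against 127 ± 2.14 with control. All other levels are in CPM and are compared only within a gene.

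Among the HSP70 and HSP90 type chaperones and co-factors, 8 of 10 rose at 48 h with the shFabp7 partner and none fell. Of all genes 19.9% rose and 11.6% fell. The median log2 fold change of the 10 was 0.53. Hspa5 (BiP) is the HSP70 of the ER lumen and the protein that holds the stress sensors inactive. Hspa5 had 668, 662 and 668 CPM with the shFabp7 partner and 469, 478 and 485 CPM with the control partner at 48 h, and 1078, 1092 and 1078 CPM with the shFabp7 partner and 1012, 1084 and 954 CPM with the control partner at 24 h. Its partners did not overlap at 48 h and overlapped at 24 h. It was higher with the shFabp7 partner by 0.48 ± 0.05 (edgeR quasi-likelihood test with Benjamini-Hochberg adjustment, as for all p-values here, adjusted p = 8.2e-09) at 48 h and by 0.09 ± 0.05, adjusted p = 0.27, at 24 h. With time Hspa5 fell by 0.70 ± 0.05 with the shFabp7 partner and by 1.09 ± 0.05 with the control partner.

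The co-factors of Hspa5 that changed most were its exchange factor and a subunit of its co-chaperone complex. Sdf2l1 had 88.8, 84.0 and 88.2 CPM with the shFabp7 partner and 57.0, 55.0 and 55.1 CPM with the control partner at 48 h, and 61.9, 59.1 and 60.2 CPM with the shFabp7 partner and 58.2, 58.5 and 50.3 CPM with the control partner at 24 h. Sdf2l1, which works with Dnajb11, was thus highest with the shFabp7 partner at 48 h, with no overlap with any other group. It rose by 0.64 ± 0.06 (adjusted p = 2.8e-10) at 48 h. Over time it rose by 0.53 ± 0.06 with the shFabp7 partner and had 0.00 ± 0.06, adjusted p = 1, with the control partner.

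Hyou1 had 286, 278 and 287 CPM with the shFabp7 partner and 207, 175 and 170.5 CPM with the control partner at 48 h, and 412, 403 and 393 CPM with the shFabp7 partner and 367, 388 and 364 CPM with the control partner at 24 h. Hyou1 (GRP170) exchanges the nucleotide of Hspa5, and its control libraries at 48 h were all below the rest. It rose by 0.62 ± 0.06 (adjusted p = 5.3e-10) at 48 h, and fell over time by 0.51 ± 0.06 with the shFabp7 and by 1.02 ± 0.06 with the control partner.

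Manf had 158, 158 and 159 CPM with the shFabp7 partner and 107, 104 and 103 CPM with the control partner at 48 h, and 151, 146 and 145 CPM with the shFabp7 partner and 144, 141 and 131 CPM with the control partner at 24 h. Manf, a small secreted ER protein that binds Hspa5, was lower in every control library at 48 h than in any other. It rose by 0.60 ± 0.05 (adjusted p = 1e-10). Over time it had 0.11 ± 0.05, adjusted p = 0.059, with the shFabp7 partner and fell by 0.40 ± 0.05 with the control partner.

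Dnajb11 had 114, 119 and 117 CPM with the shFabp7 partner and 84.7, 77.0 and 76.3 CPM with the control partner at 48 h, and 167, 159 and 162 CPM with the shFabp7 partner and 138, 150.3 and 145 CPM with the control partner at 24 h. Dnajb11 (ERdj3), the J-domain co-chaperone that hands unfolded chains to Hspa5, was apart between the partners at both times. It rose by 0.56 ± 0.05 (adjusted p = 9.3e-10) at 48 h and by 0.17 ± 0.05 (adjusted p = 0.03) at 24 h, and fell over time by 0.48 ± 0.05 and 0.86 ± 0.05 with the shFabp7 and control partner. The call at 24 h ended without control 24 h replicate 1 or shFabp7 24 h replicate 1 (adjusted p up to 0.127 over the 12 fits that each left out 1 library), and with upper-quartile scaling or library totals.

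Hsp90b1 (GRP94, the HSP90 of the ER, which integrins and Toll-like receptors need to fold) rose by 0.49 ± 0.05 and Creld2, an ER stress-induced disulfide isomerase-like protein, by 0.59 ± 0.06 at 48 h. Dnajc3 (P58IPK), a J-domain co-factor of Hspa5, rose by 0.13 ± 0.05 (adjusted p = 0.034), a call that ended in 10 of the 12 fits without 1 library (all but those without control 48 h replicate 3 or shFabp7 48 h replicate 2, adjusted p up to 0.125) and with upper-quartile scaling, library totals, either other filter or the compared groups alone. Hspa13, an HSP70-like protein of microsomes, had 0.11 ± 0.07, adjusted p = 0.27, at 48 h and passed in no comparison.

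Dnajb9 had 10.1, 10.2 and 10.0 CPM with the shFabp7 partner and 9.29, 8.49 and 10.3 CPM with the control partner at 48 h, and 17.6, 16.9 and 17.1 CPM with the shFabp7 partner and 18.6, 16.7 and 16.7 CPM with the control partner at 24 h. Dnajb9 (ERdj4), a J-domain protein that keeps IRE1 in check, overlapped between the partners at both times and was lower at 48 h in every library. It had 0.11 ± 0.09, adjusted p = 0.4, for the partner at 48 h, and fell over time by 0.77 ± 0.09 with the shFabp7 and 0.89 ± 0.09 with the control partner. Over time 5 of the 10 fell and 1 rose with the shFabp7 partner (50% and 10%, against 30.2% and 35.9% of all genes). With the control partner 8 fell and none rose (80% and 0%, against 32% and 35.8%). The partner effect was larger at 48 h than at 24 h for 7 of the 10, by 0.53 ± 0.08 for Sdf2l1, 0.51 ± 0.08 for Hyou1 and 0.51 ± 0.07 for Manf (adjusted p = 0.00024, 0.00028 and 4.8e-05). Against a minimum fold of 1.2, 7 of the 10 passed at 48 h.

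**Figure D3:**
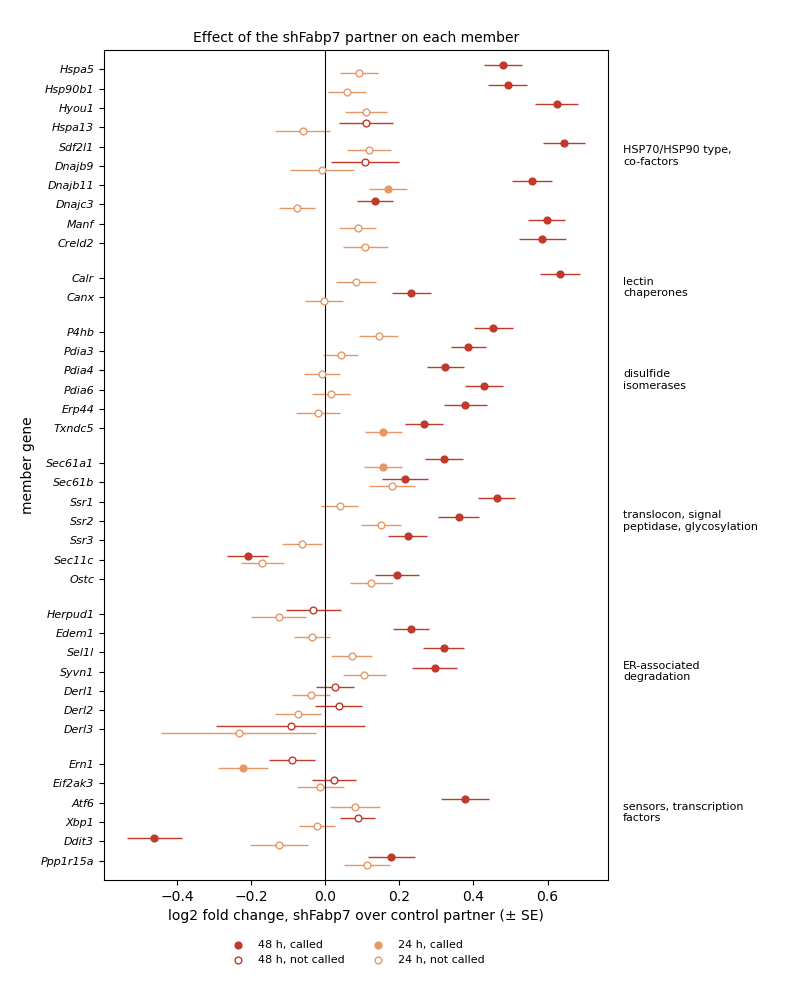
Log2 fold change of each member (rows, grouped by role), shFabp7 over control partner, at 48 h (red) and 24 h (orange), ± SE from the fit of 12 libraries, with filled points for an adjusted p below 0.05 and open points otherwise. At 48 h, 27 filled points lie to the right of 0 and 2 (Sec11c and Ddit3) to the left, while at 24 h 4 points are filled.

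Both lectin chaperones, which hold glycoproteins until they fold, rose at 48 h, where 19.9% of all genes rose. Calr had 782, 808 and 823 CPM with the shFabp7 partner and 561, 497 and 499 CPM with the control partner at 48 h, and 1206, 1161 and 1173 CPM with the shFabp7 partner and 1062, 1158 and 1125 CPM with the control partner at 24 h. Calr (calreticulin), the soluble lectin and a calcium store of the ER lumen, was lower in every control library at 48 h than in any other library, and at 24 h the partners were just apart, with 1161 CPM in the lowest shFabp7 and 1158 CPM in the highest control library. It rose by 0.63 ± 0.05 (adjusted p = 1.4e-10) at 48 h and had 0.08 ± 0.05, adjusted p = 0.36, at 24 h. The difference between these effects was 0.55 ± 0.08 (adjusted p = 4.8e-05), the highest of any member. With time Calr fell by 0.55 ± 0.05 with the shFabp7 and by 1.10 ± 0.05 with the control partner. Canx (calnexin), its membrane-bound relative, rose by 0.23 ± 0.05 at 48 h (adjusted p = 0.0007) and fell over time by 0.18 ± 0.05 and 0.42 ± 0.05. The first of these falls ended with library totals as the scaling.

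All 6 disulfide isomerases rose at 48 h and none fell (against 19.9% and 11.6% of all genes), with a median of 0.38. Pdia3 had 411, 422 and 434 CPM with the shFabp7 partner and 325, 319 and 325 CPM with the control partner at 48 h, and 647, 619 and 636 CPM with the shFabp7 partner and 603, 628 and 617 CPM with the control partner at 24 h. Pdia3 (ERp57), the isomerase that works with Calr and Canx and in the loading of MHC class I molecules, did not overlap between the partners at 48 h, and both 48 h groups were below all 24 h libraries. It rose by 0.39 ± 0.05 (adjusted p = 1.4e-07) at 48 h and fell over time by 0.59 ± 0.05 with the shFabp7 and 0.93 ± 0.05 with the control partner.

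Txndc5 had 105, 103 and 102 CPM with the shFabp7 partner and 84.5, 87.2 and 85.7 CPM with the control partner at 48 h, and 124, 113 and 119.7 CPM with the shFabp7 partner and 104, 110.0 and 106 CPM with the control partner at 24 h. Txndc5 (ERp46), a thioredoxin-domain isomerase, rose by 0.27 ± 0.05 at 48 h (adjusted p = 9.6e-05) and by 0.16 ± 0.05 at 24 h (adjusted p = 0.04). The call at 24 h ended without control 24 h replicate 1 or 3, shFabp7 24 h replicate 1 or 3, or shFabp7 48 h replicate 2 or 3 (adjusted p up to 0.124), with a fit on the compared groups alone and under both of upper-quartile scaling and library totals.

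P4hb (protein disulfide isomerase itself) rose by 0.45 ± 0.05, Pdia6 (P5) by 0.43 ± 0.05, Erp44, which retains client proteins on the way to the Golgi, by 0.38 ± 0.06, and Pdia4 (ERp72) by 0.32 ± 0.05 at 48 h. Over time 2 of the 6 rose (Erp44 by 0.45 ± 0.06, Pdia6 by 0.32 ± 0.05) and 2 fell with the shFabp7 partner. Both shares were 33.3%, near the 35.9% and 30.2% of all genes. With the control partner 4 fell and none rose (66.7% and 0%, against 32% and 35.8%). The effect at 48 h exceeded that at 24 h for 5 of the 6, from 0.31 ± 0.07 for P4hb to 0.41 ± 0.07 for Pdia6. In fits without 1 library the P4hb difference was lost without control 24 h replicate 2 or shFabp7 24 h replicate 2 or 3 (adjusted p up to 0.125), and the Pdia4 difference (0.33 ± 0.07) without shFabp7 24 h replicate 2 (adjusted p = 0.074). Against a minimum fold of 1.2, P4hb, Pdia3 and Pdia6 passed at 48 h.

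**Figure D4:**
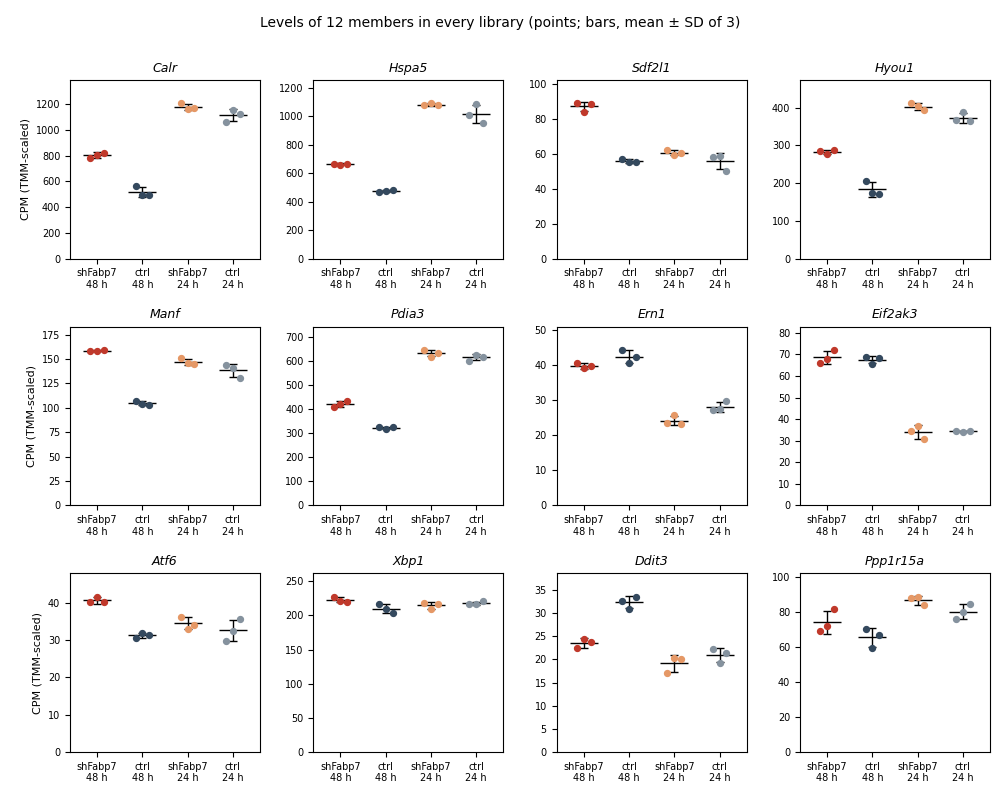
Level of 12 members (panels) in CPM, with 1 point per library and bars for mean ± SD of the 3 libraries of a group, for the shFabp7 and control partners at 48 h and at 24 h. Calr, Hspa5, Hyou1 and Pdia3 are lower at 48 h and lowest with the control partner, Sdf2l1 is highest with the shFabp7 partner at 48 h, Ddit3 is highest with the control partner at 48 h, and Eif2ak3 is higher at 48 h with both partners.

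Of the 7 components of protein entry, signal cleavage and glycosylation, 6 rose and 1 fell at 48 h, with a median of 0.22. As shares this is 85.7% and 14.3%, against 19.9% and 11.6% of all genes. With upper-quartile scaling 3 rose, and with library totals 4. Sec61a1 had 205, 210.0 and 216 CPM with the shFabp7 partner and 179, 159.8 and 166 CPM with the control partner at 48 h, and 303, 288 and 290.1 CPM with the shFabp7 partner and 254, 268 and 268 CPM with the control partner at 24 h. Sec61a1, the pore of the translocon, was apart between the partners at both times. It rose by 0.32 ± 0.05 at 48 h (adjusted p = 7.3e-06) and by 0.16 ± 0.05 at 24 h (adjusted p = 0.042), and fell over time by 0.48 ± 0.05 and 0.65 ± 0.05 with the shFabp7 and control partner. The call at 24 h ended without control 24 h replicate 1, shFabp7 24 h replicate 1 or any library of the shFabp7 partner at 48 h (adjusted p up to 0.137), in a fit on the compared groups alone and with upper-quartile scaling or library totals.

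Sec11c had 85.6, 86.0 and 86.9 CPM with the shFabp7 partner and 93.6, 104 and 101 CPM with the control partner at 48 h, and 54.4, 55.9 and 56.1 CPM with the shFabp7 partner and 67.0, 63.3 and 56.9 CPM with the control partner at 24 h. Sec11c, a catalytic subunit of the signal peptidase, was lower with the shFabp7 partner at 48 h without overlap, against the direction of the other 6, and was lower at 24 h too (-0.17 ± 0.06, adjusted p = 0.057). It fell by 0.21 ± 0.06 at 48 h (adjusted p = 0.004), and rose over time by 0.64 ± 0.06 with the shFabp7 and 0.68 ± 0.06 with the control partner.

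Ssr3 had 219, 203 and 212 CPM with the shFabp7 partner and 166, 183 and 194 CPM with the control partner at 48 h, and 149, 147 and 141 CPM with the shFabp7 partner and 153, 154 and 150.2 CPM with the control partner at 24 h. Ssr3, a subunit of the translocon-associated protein complex, rose by 0.22 ± 0.05 with the shFabp7 partner at 48 h (adjusted p = 0.0013) and rose over time by 0.53 ± 0.05 with the shFabp7 and 0.25 ± 0.05 with the control partner. Its partners were apart at 48 h, and at 24 h they were apart with the shFabp7 partner lower. The difference between the partner effects was 0.29 ± 0.08 (adjusted p = 0.02). That difference was lost without any 1 of the 24 h libraries or without shFabp7 48 h replicate 1 or 3 (adjusted p up to 0.186), and the 48 h call missed the threshold with upper-quartile scaling (adjusted p = 0.0502).

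The other subunits of that complex, Ssr1 and Ssr2, rose by 0.46 ± 0.05 and 0.36 ± 0.05 at 48 h, and Ssr1 had a larger effect at 48 h than at 24 h by 0.42 ± 0.07. Sec61b, a small translocon subunit, rose by 0.22 ± 0.06 and Ostc, an oligosaccharyltransferase subunit, by 0.19 ± 0.06 at 48 h. Both calls ended with upper-quartile scaling or library totals, and that of Ostc also without control 48 h replicate 1 or shFabp7 48 h replicate 2 (adjusted p up to 0.076). Over time 2 of the 7 rose and 4 fell with the shFabp7 partner (28.6% and 57.1%, against 35.9% and 30.2% of all genes). With the control partner 2 rose and 5 fell (28.6% and 71.4%, against 35.8% and 32%). The falls of Sec61b by 0.15 ± 0.06 and 0.18 ± 0.06 are among the weakest. The second dropped to 0.07 without control 24 h replicate 2 (adjusted p = 0.339), the first was lost without shFabp7 24 h replicate 1 or shFabp7 48 h replicate 1 or 2 (adjusted p up to 0.118), and both were lost with upper-quartile scaling and library totals.

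Among the genes of ER-associated degradation 3 of 7 rose at 48 h and none fell. As shares this is 42.9% and 0%, against 19.9% and 11.6% of all genes. The median was 0.04, near the 0.01 over all genes. It was -0.05 with upper-quartile scaling and likewise with library totals, while the 3 stayed called. They were Sel1l by 0.32 ± 0.06 and Syvn1 by 0.30 ± 0.06, the adaptor and the ubiquitin ligase (HRD1) of the main retrotranslocation complex, and Edem1, which trims mannose from misfolded glycoproteins, by 0.23 ± 0.05. None of the 3 passed against a minimum fold of 1.2. Syvn1 had 58.1, 55.8 and 60.5 CPM with the shFabp7 partner and 50.1, 43.8 and 48.2 CPM with the control partner at 48 h, and 92.9, 94.4 and 88.4 CPM with the shFabp7 partner and 86.4, 78.9 and 91.0 CPM with the control partner at 24 h. The Syvn1 partners did not overlap at 48 h, and every 48 h library was below every 24 h library. Syvn1 fell over time by 0.66 ± 0.06 with the shFabp7 and 0.85 ± 0.06 with the control partner.

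The derlins, which form the exit channel, showed no call for the partner. Derl1 had 0.03 ± 0.05, adjusted p = 0.74, and Derl2 0.04 ± 0.06, adjusted p = 0.71, at 48 h. Derl3, at 1.97 ± 0.326 and 2.09 ± 0.0232 CPM (SD, n = 3 each) the lowest member, had -0.09 ± 0.20, adjusted p = 0.77, and its SE was the largest of any member. Herpud1, an ERAD scaffold whose promoter holds the ERSE-II shown above, had -0.03 ± 0.07, adjusted p = 0.79. Its falls over time were 0.18 ± 0.07 and 0.27 ± 0.07. The second rests on control 24 h replicate 3, at 78.2 CPM beside 58.1 and 60.1 CPM in its group, and was 0.10 without it (adjusted p = 0.122). The first was lost in 5 of the 12 fits without 1 library, those without control 48 h replicate 1, shFabp7 24 h replicate 2 or any library of the shFabp7 partner at 48 h (adjusted p up to 0.108). Edem1 had a larger effect at 48 h than at 24 h by 0.27 ± 0.07 (adjusted p = 0.018), which was lost without control 24 h replicate 1 or 3, any library of the shFabp7 partner at 24 h, or shFabp7 48 h replicate 2 or 3 (adjusted p up to 0.16), and with upper-quartile scaling or no filter. Over time 1 of the 7 rose (Edem1) and 4 fell with the shFabp7 partner (14.3% and 57.1%, against 35.9% and 30.2% of all genes). With the control partner 1 rose and 5 fell (14.3% and 71.4%, against 35.8% and 32%).

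The sensors and the genes that act below them did not move as one. At 48 h 2 of 6 rose (Atf6 and Ppp1r15a) and 1 fell (Ddit3) with the shFabp7 partner, with a median of 0.06. As shares this is 33.3% and 16.7%, against 19.9% and 11.6% of all genes. With upper-quartile scaling or library totals the median was -0.03, with 1 up (Atf6) and 2 down (Ddit3 and Ern1). Atf6 had 40.1, 41.7 and 40.2 CPM with the shFabp7 partner and 30.6, 32.1 and 31.3 CPM with the control partner at 48 h, and 36.3, 33.1 and 34.2 CPM with the shFabp7 partner and 29.9, 32.4 and 35.6 CPM with the control partner at 24 h. Atf6, the sensor that is cleaved in the Golgi into a transcription factor, was higher in each shFabp7 library at 48 h than in any other library. It rose by 0.38 ± 0.07 (adjusted p = 2.7e-05) at 48 h and had 0.08 ± 0.07, adjusted p = 0.49, at 24 h. Over time it rose by 0.24 ± 0.07 with the shFabp7 partner and had -0.06 ± 0.07, adjusted p = 0.42, with the control partner, and the difference between these was 0.30 ± 0.09, adjusted p = 0.054.

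Ddit3 had 22.4, 24.5 and 23.7 CPM with the shFabp7 partner and 32.6, 30.9 and 33.5 CPM with the control partner at 48 h, and 17.1, 20.3 and 20.1 CPM with the shFabp7 partner and 22.1, 19.2 and 21.4 CPM with the control partner at 24 h. Ddit3 encodes CHOP, the transcription factor that PERK signalling induces through ATF4. Every control library at 48 h was above every other library, and the partners overlapped at 24 h. Ddit3 fell by 0.46 ± 0.07 with the shFabp7 partner at 48 h (adjusted p = 9.2e-06), the only member besides Sec11c to do so. Over time it rose by 0.29 ± 0.08 with the shFabp7 and by 0.63 ± 0.08 with the control partner, the first of which fell short without shFabp7 24 h replicate 1 (adjusted p = 0.0501). The interaction missed the threshold at -0.34 ± 0.11, adjusted p = 0.061, and passed it with upper-quartile scaling (-0.40, adjusted p = 0.032) and library totals (-0.38, adjusted p = 0.042).

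Eif2ak3 had 66.3, 67.8 and 72.1 CPM with the shFabp7 partner and 68.8, 65.8 and 68.2 CPM with the control partner at 48 h, and 34.5, 37.0 and 30.8 CPM with the shFabp7 partner and 34.5, 34.1 and 34.7 CPM with the control partner at 24 h. Eif2ak3 is PERK, the kinase that slows translation under stress. Its partners overlapped at both times, while every 48 h library was well above every 24 h library. It rose over time by 1.01 ± 0.06 (adjusted p = 4.5e-16) with the shFabp7 and 0.97 ± 0.06 (adjusted p = 9.1e-16) with the control partner, the highest values of any member. For the partner it had 0.02 ± 0.06, adjusted p = 0.81, at 48 h and -0.01 ± 0.06, adjusted p = 0.92, at 24 h.

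Ern1 had 40.7, 39.1 and 39.8 CPM with the shFabp7 partner and 44.4, 40.6 and 42.3 CPM with the control partner at 48 h, and 23.6, 25.7 and 23.3 CPM with the shFabp7 partner and 27.2, 27.5 and 29.8 CPM with the control partner at 24 h. Ern1 is IRE1, the sensor whose nuclease starts Xbp1 splicing. Its partners were apart at 24 h and overlapped at 48 h, and it was higher at 48 h with both. It fell with the shFabp7 partner by 0.22 ± 0.07 at 24 h (adjusted p = 0.029) and had -0.09 ± 0.06, adjusted p = 0.3, at 48 h. Over time Ern1 rose by 0.72 ± 0.07 with the shFabp7 and 0.59 ± 0.06 with the control partner. The 24 h call ended without control 24 h replicate 1 or 3 or shFabp7 24 h replicate 1 or 3 (adjusted p up to 0.195), with RLE scaling and with no filter on low counts.

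Xbp1 had 228, 222 and 220.0 CPM with the shFabp7 partner and 217, 209 and 204 CPM with the control partner at 48 h, and 219, 209 and 217 CPM with the shFabp7 partner and 217, 216 and 221 CPM with the control partner at 24 h. Xbp1, the transcription factor that IRE1 activates, had higher values in all 3 shFabp7 than in all 3 control libraries at 48 h and overlapped at 24 h. It passed in none of the 5 comparisons, with 0.09 ± 0.05, adjusted p = 0.17, for the partner at 48 h and -0.05 ± 0.05, adjusted p = 0.33, over time with the control partner. With library totals the time values became 0.20 (adjusted p = 0.00025) with the shFabp7 and 0.14 (adjusted p = 0.010) with the control partner, both called.

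Ppp1r15a had 69.1, 71.7 and 81.6 CPM with the shFabp7 partner and 70.1, 59.6 and 66.9 CPM with the control partner at 48 h, and 87.6, 88.7 and 83.7 CPM with the shFabp7 partner and 75.9, 79.9 and 84.6 CPM with the control partner at 24 h. Ppp1r15a (GADD34) restores translation after PERK signalling. It rose by 0.18 ± 0.06 with the shFabp7 partner at 48 h (adjusted p = 0.03), although the lowest shFabp7 library lay below the highest control library. That call ended in 8 of the 12 fits without 1 library (any at 24 h, control 48 h replicate 2 or shFabp7 48 h replicate 3, lowest value 0.11, adjusted p up to 0.274) and with upper-quartile scaling, library totals, the stricter filter (adjusted p = 0.0513) or the compared groups alone (adjusted p = 0.086). Over time it fell by 0.23 ± 0.06 with the shFabp7 and by 0.29 ± 0.06 with the control partner, and both falls were lost with library totals. Over time 4 of the 6 rose and 1 fell with the shFabp7 partner (66.7% and 16.7%, against 35.9% and 30.2% of all genes). With the control partner 3 rose and 1 fell (50% and 16.7%, against 35.8% and 32%).

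**Figure D5:**
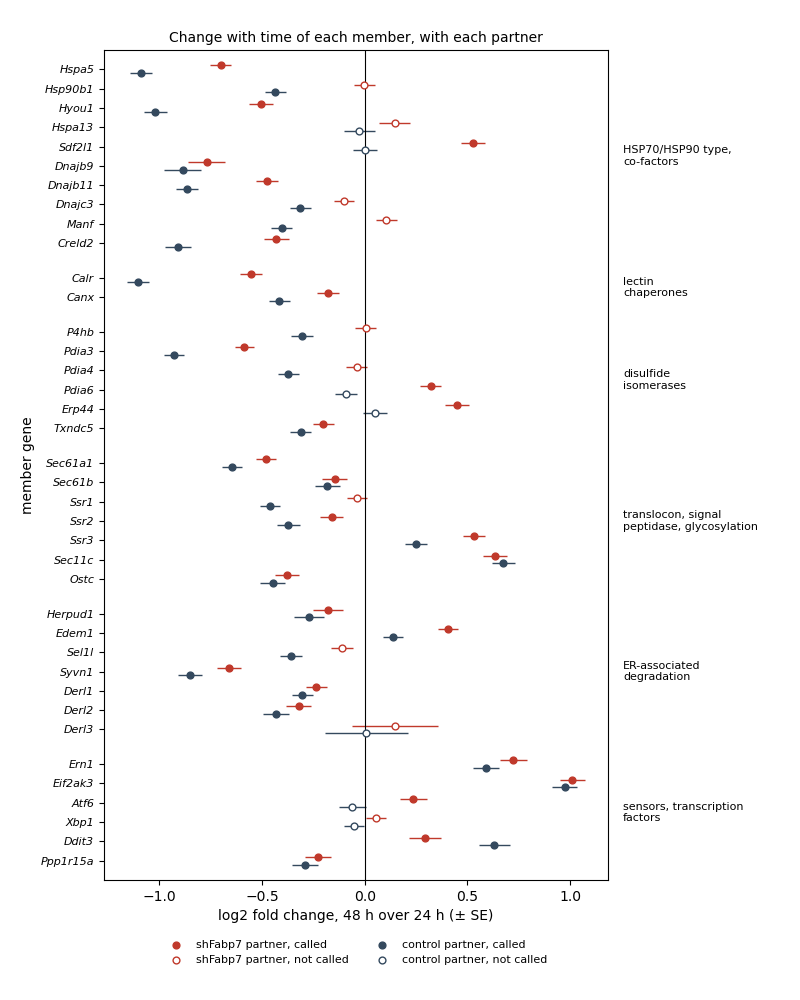
Log2 fold change of each member (rows, grouped by role), 48 h over 24 h, with the shFabp7 partner (red) and the control partner (dark blue), ± SE from the fit of 12 libraries, with filled points for an adjusted p below 0.05. Most chaperones and lectins lie left of 0 and further left with the control partner. Of the 6 disulfide isomerases, 3 lie left of 0 with the shFabp7 and 5 with the control partner. Eif2ak3, Ern1, Sec11c, Ssr3, Edem1 and Ddit3 lie right of 0 with both partners.

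Other genes of the pathway were examined in 9 lists with 184 tested genes. At 48 h 62 rose and 11 fell with the shFabp7 partner (33.7% and 5.98%, median 0.09), and at 24 h 15 rose and 3 fell (8.15% and 1.63%, median 0.03), beside the shares of all genes given above. By the interaction contrast 21 had a larger and 2 a smaller value (11.4% and 1.09%, background 4.43% and 1.17%). Over time 53 rose and 91 fell with the shFabp7 partner (28.8% and 49.5%, background 35.9% and 30.2%). With the control partner 49 rose and 109 fell (26.6% and 59.2%, background 35.8% and 32%).

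Genes that attach and check sugars rose in several cases. Of 11 oligosaccharyltransferase subunits, which transfer the N-linked sugar, 8 rose (72.7%) and none fell at 48 h, against 19.9% and 11.6% of all genes, and 1 rose at 24 h. Ddost had 156 ± 2.9 CPM with the shFabp7 and 111 ± 9.42 CPM with the control partner at 48 h (SD, n = 3 each) and rose by 0.49 ± 0.05 (adjusted p = 1.5e-08). Rpn1 rose by 0.47 ± 0.05 at 48 h and by 0.15 ± 0.05 at 24 h. Of 9 tested genes of glycoprotein quality control 5 rose (55.6%) and none fell at 48 h, among them the cargo lectins Lman2 by 0.36 ± 0.05 and Lman1 by 0.35 ± 0.05. Mogs, the glucosidase that makes the first cut on the sugar, was the 1 gene of this list to rise at 24 h, by 0.25 ± 0.05 (adjusted p = 0.0023).

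Of 24 genes of ER to Golgi transport and retrieval 13 rose (54.2%) and none fell at 48 h, among them the cargo receptor Surf4 by 0.43 ± 0.05 (adjusted p = 3.2e-08) and Kdelr2, a receptor that returns luminal chaperones to the ER, by 0.47 ± 0.06. With upper-quartile scaling the counts were 10 and 1. At 24 h 2 rose, Sar1b, the GTPase that starts COPII coats, by 0.29 ± 0.08 and the coat subunit Sec31a by 0.19 ± 0.06. Of 29 other genes of targeting, translocon and signal peptidase 11 rose (37.9%) and 1 fell at 48 h (7 and 1 with upper-quartile scaling and likewise with library totals) and 4 rose at 24 h. Emc4, of the ER membrane protein complex, rose by 0.42 ± 0.06 and Srpr, a subunit of the signal recognition particle receptor, by 0.32 ± 0.05 at 48 h. At 24 h Emc6 rose by 0.22 ± 0.06 and Srp19 by 0.23 ± 0.07.

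Of 23 further degradation factors 8 rose (34.8%) and none fell at 48 h, which became 5 and 5 with upper-quartile scaling and likewise with library totals. Vcp, the ATPase that extracts proteins from the membrane, had 601 ± 17.6 and 398 ± 27.3 CPM with the shFabp7 and control partner at 48 h and rose by 0.60 ± 0.06 (adjusted p = 6.9e-10), and Nploc4, its cofactor, rose by 0.48 ± 0.06. At 24 h Ube2j2, a ubiquitin-conjugating enzyme of the ER membrane, rose by 0.18 ± 0.05 and Vcp by 0.17 ± 0.06, the 2 calls of that list. Of 34 other luminal folding and oxidation factors 5 rose and 4 fell at 48 h (3 and 5 with upper-quartile scaling). These are 14.7% and 11.8%, against 19.9% and 11.6% of all genes, so no more rose than in the background. Those named by the lowest adjusted p were Ero1a, which feeds oxidizing power to the disulfide isomerases, up by 0.37 ± 0.05 (adjusted p = 6e-07) and Txndc11 up by 0.42 ± 0.06. Cnpy4 fell by 0.30 ± 0.09 at 24 h.

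The signalling lists were mixed. Of 24 tested genes of the PERK branch and the integrated stress response 5 rose (20.8%, against 19.9% of all genes) and none fell at 48 h, so the share that rose was near the background. Of these genes 2 rose and 3 fell with upper-quartile scaling, while library totals gave 3 and 3. Atf3 had 103, 104 and 113 CPM with the shFabp7 partner and 75.0, 69.6 and 69.4 CPM with the control partner at 48 h, and 97.4, 97.1 and 89.6 CPM with the shFabp7 partner and 67.0, 74.2 and 74.1 CPM with the control partner at 24 h. Atf3, a stress-induced transcription factor, was apart between the partners at both times and rose by 0.58 ± 0.06 at 48 h (adjusted p = 1.5e-09) and 0.40 ± 0.06 at 24 h (adjusted p = 3.9e-05). Eif2s1, the factor that PERK phosphorylates, rose by 0.29 ± 0.07 at 48 h. Bbc3, the death gene PUMA, rose by 0.46 ± 0.08 at 24 h (adjusted p = 0.00084) and had -0.15 ± 0.08, adjusted p = 0.13, at 48 h. Atf4, named after its values were seen because it lies between PERK and Ddit3, had 0.10 ± 0.06, adjusted p = 0.2, at 48 h.

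Of 17 tested regulators of the ATF6 and IRE1 branches 4 rose and 2 fell at 48 h (23.5% and 11.8%, near the background of 19.9% and 11.6%). Crebrf, a negative regulator of the stress response, fell by 0.62 ± 0.07 at 48 h (adjusted p = 1.6e-08) and by 0.28 ± 0.07 at 24 h. Ddx1, a helicase of the tRNA ligase complex that joins spliced Xbp1, rose by 0.42 ± 0.05 at 48 h, and Atf6b, the relative of Atf6, by 0.24 ± 0.05 at 24 h. Of 13 genes of the ER calcium store 3 rose and 4 fell at 48 h (23.1% and 30.8%, or 2 and 5 with upper-quartile scaling and likewise with library totals). The calcium pump gene Atp2a2 rose by 0.57 ± 0.06 at 48 h (adjusted p = 1.4e-09) and 0.17 ± 0.06 at 24 h, the release channel gene Itpr1 rose by 0.27 ± 0.05 at 48 h, and Itpr2 fell by 0.17 ± 0.05 at 24 h.

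Of the 16 calls at 24 h among the pathway genes named here, those of Atf3, Atf6b, Bbc3, Emc6 and Mogs stood in every fit without 1 library. The other 11 were lost without at least 1 library, which could be any of the 6 at 24 h, any of the 3 of the shFabp7 partner at 48 h or control 48 h replicate 2, with adjusted p up to 0.32 for Itpr2. At 48 h 1 of the 25 was lost in this way, the rise of Srp19 without control 48 h replicate 1 or shFabp7 48 h replicate 2 (adjusted p up to 0.0713).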

How the data were processed

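T cell RNA was sequenced in 12 libraries, 3 for each of 4 groups, grouped by their labels. The authors deposited raw counts per gene as 1 table. The submitters' processing notes name CASAVA 1.8.2, TopHat2 2.0.13, HTSeq 0.6.1p1 and the build GRCm39. The strand setting of the counting and the annotation release are not given in the sources used here. It is therefore not known whether reads of overlapping or antisense genes were kept apart. The libraries held 32.0 to 40.6 M counts.

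From these counts, filterByExpr (minimum count 10, minimum total 15) kept 16945 genes. They were scaled by TMM and fitted in 1 model of the 4 groups with edgeR 4.0.16 (limma 3.58.1, R 4.3.3) by the robust quasi-likelihood test, for 5 contrasts, with Benjamini-Hochberg adjustment over all 16945 genes and calls at an adjusted p below 0.05. A fold change is log2, and its SE comes from the F statistic. The scripts were tested on simulated data. Alternatives were RLE scaling, upper-quartile scaling, library totals, no filter, a stricter filter, a minimum fold of 1.2, fits on the compared groups alone, a term for the replicate number (the block), DESeq2 1.42.0, and each library left out. The alternatives for pathway genes were added after seeing the data.

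Members and lists were chosen with earlier results of these data known. Library values are given for the sensors and transcription factors and, per comparison, for up to 4 called members per direction with the highest absolute change and a mean of at least 1 CPM. In each pathway list up to 2 genes per partner comparison are named, those with the lowest adjusted p. The symbol of 1 list gene, Hm13, was matched as H13. Promoters and their coordinates are from RefSeq (GRCm38.p6), and exon lengths from GENCODE M21. No coordinate was converted.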

Additional observations from a re-analysis of the deposited data

Results flagged for a closer look

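The effect of the partner on 16 of the 38 members differed between the times by the interaction contrast (effect at 48 h minus effect at 24 h, log2, ± SE, edgeR quasi-likelihood test over all genes). For the chaperones and co-factors the difference was 0.39 ± 0.07 for Hspa5, 0.43 ± 0.07 for Hsp90b1, 0.51 ± 0.08 for Hyou1, 0.53 ± 0.08 for Sdf2l1, 0.39 ± 0.07 for Dnajb11, 0.51 ± 0.07 for Manf, 0.48 ± 0.09 for Creld2 and 0.55 ± 0.08 for Calr. For the disulfide isomerases the difference was 0.31 ± 0.07 for P4hb, 0.34 ± 0.07 for Pdia3, 0.33 ± 0.07 for Pdia4, 0.41 ± 0.07 for Pdia6 and 0.40 ± 0.08 for Erp44. For the translocon and degradation factors the difference was 0.42 ± 0.07 for Ssr1, 0.29 ± 0.08 for Ssr3 and 0.27 ± 0.07 for Edem1. All 16 were positive and had adjusted p-values between 4.8e-05 and 0.020. The calls of Edem1, P4hb, Pdia4 and Ssr3 were each lost without at least 1 library, while the other 12 held in every fit without 1 library.

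Of the named genes of the other pathway lists, 16 also differed between the times. Among luminal and glycoprotein factors the difference was 0.41 ± 0.07 for Ero1a, 0.33 ± 0.09 for Txndc11 and 0.28 ± 0.07 for Lman1. Among degradation factors the difference was 0.43 ± 0.08 for Vcp and 0.32 ± 0.08 for Nploc4. Among oligosaccharyltransferase and membrane insertion the difference was 0.31 ± 0.07 for Rpn1, 0.34 ± 0.08 for Ddost and 0.33 ± 0.09 for Emc4. Among transport between ER and Golgi the difference was 0.27 ± 0.08 for Sec31a, 0.33 ± 0.08 for Kdelr2 and 0.35 ± 0.07 for Surf4. Among calcium store the difference was 0.41 ± 0.08 for Atp2a2 and 0.32 ± 0.07 for Itpr1. Ddx1 had 0.31 ± 0.07. The values were negative for 2 genes, Bbc3 at -0.61 ± 0.11, which rose at 24 h and did not pass at 48 h, and Crebrf at -0.33 ± 0.09, which fell further at 48 h. Those of Atp2a2, Bbc3, Ero1a, Surf4 and Vcp held in every fit without 1 library, and the other 11 did not. These genes were named by their partner effects at single times, which use the same libraries.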

How the results depend on the processing

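Without 1 library at a time, the members that rose and fell with the shFabp7 partner numbered 25 to 27 and 2 at 48 h (median log2 fold change 0.252 to 0.292), and 0 to 9 and 0 to 2 at 24 h (0.0382 to 0.0763). The difference between these effects was called higher for 12 to 18 and lower for 0 to 1 (0.173 to 0.249). Over time 9 to 11 rose and 15 to 20 fell with the shFabp7 partner (-0.148 to -0.100), and 6 rose and 24 to 25 fell with the control partner (-0.343 to -0.288).

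The counts at 24 h are within what a change of setting moves. There were 6 members up and 0 down when RLE factors or no filter were used, 0 and 2 with upper-quartile scaling and with library totals (median -0.00274), 2 down with the stricter filter, 1 up on the compared groups alone, 7 up with DESeq2, and 0 and 0 against a minimum fold of 1.2. At 48 h the median was 0.195 with upper-quartile scaling and 0.197 with library totals, and against a minimum fold of 1.2 there were 12 up and 1 down. For the difference between times, the median was 0.162 with upper-quartile scaling, 0.182 with library totals and 0.183 with no filter, 1 was lower in each of these and with DESeq2, and 0 were higher against a minimum fold of 1.2. Over time with the shFabp7 partner the median was -0.143 with RLE scaling and with DESeq2, -0.0657 with upper-quartile scaling, -0.138 with no filter and 0.0424 with library totals. With library totals 17 rose and 11 fell, and against the minimum fold 10 fell, where 19.6% of all genes tested fell. With the control partner the median was -0.211 with upper-quartile scaling and -0.123 with library totals. The values that turned in sign and were called in either setting all did so over time, with library totals. With the shFabp7 partner these were Hsp90b1 (0.15), Pdia4 (0.11), Ssr1 (0.11), Sec61b (0.0015) and Surf4 (0.032). With the control partner they were Sec61b (0.0086), Xbp1 (0.14), Atf3 (0.18) and Crebrf (0.029). The cause was not tested. A further 133 member values turned in sign while called in neither setting, among them, over time with library totals, Dnajc3 and Sel1l with the shFabp7 and Atf6, Hspa13 and Pdia6 with the control partner.

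With the replicate number as a block, 1 member rose and 1 fell at 24 h (Txndc5, adjusted p = 0.0549, and Sec61a1, adjusted p = 0.0558, lost the call), and the calls numbered 27 and 2 at 48 h, 16 and 0 for the difference, 10 and 18 over time with the shFabp7 and 6 and 25 with the control partner. Libraries of the same number did not deviate together (correlations -0.0670 to 0.0101), so no pairing was seen. With 3 libraries per group this cannot exclude one. Each library correlated best with its own number only between the times of the shFabp7 partner. Over all comparisons and 21 alternatives, 3705 of 3952 values of single members kept their side of the threshold, and 139 changed sign. All groups hold 3 libraries, which limits what can be called. The lowest member, Derl3, is limited by its depth.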
